A study of Mus musculus with 6 samples.

Results

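Macrophages carry endocytic receptors that bind sugars, modified lipoproteins, haemoglobin complexes, folate and hyaluronan, and 10 genes of this kind are described here: Mrc1, Mgl2, Clec10a, Clec7a, Stab1, Msr1, Cd68, Cd163, Folr2 and Lyve1. They were taken by symbol from a table of 16344 genes in 6 mouse tumour libraries, and all 10 had a value. None of them was chosen by a threshold on its values, but the list was drawn up with earlier results of these data known. The shares of all genes printed beside counts of these genes are therefore no test of the list.

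The C-type lectins among these receptors hold a calcium-dependent fold that recognises carbohydrates, whereas scavenger receptors are a structurally mixed group defined by binding of many polyanionic ligands. Most of these proteins take their ligand into endosomes and lysosomes. Mrc1, Mgl2, Clec10a and Cd163 are widely read as markers of alternatively activated macrophages, and Lyve1 and Folr2 as markers of macrophages resident along vessels. Several are made by other cells too, Lyve1 and Stab1 by lymphatic or sinusoidal endothelium and Clec10a and Mgl2 by dendritic cells.

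The tumours were high-grade serous ovarian tumours of the transplantable mouse line 60577, which was placed in the abdominal cavity of syngeneic mice, so every tumour comes from 1 cell line grown in an immunocompetent host. After 21 days of growth, carboplatin was given in 3 weekly cycles, and the samples were taken at a humane endpoint. In the AZD7507 group (n = 3) the mice were then gavaged daily for 84 days with AZD7507, an inhibitor of the receptor CSF1R on which macrophages depend. The Vehicle group (n = 3) received vehicle, and the protocol names carboplatin without telling the groups apart. Mouse strain, genotype and age are not given in the sources used here, and the day of collection cannot be told apart from treatment. Levels are log2 RPKM, that is read density per gene length and library size on a log2 scale, so that levels can be compared between genes, and differences are AZD7507 minus vehicle. The depth of the libraries is unknown. The p-values measure only the spread between these tumours, for which no separate animals are named.

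All 10 genes had a lower mean with AZD7507. Mgl2 and Stab1 fell (limma, Benjamini-Hochberg adjusted p under 0.05 over all 16344 genes), which is 2 of 10 where 0.337% of all genes fell and 0.355% changed in either direction. Every AZD7507 library lay below every vehicle library for 7 of the 10, namely Mrc1, Mgl2, Clec10a, Stab1, Cd68, Folr2 and Lyve1, where 8.02% of all genes were lower in this way. The median difference of the 10 genes was -1.68 on the log2 scale, beside 0.03 for all genes. In bulk tumour RNA, fewer macrophages and less of a transcript per macrophage cannot be told apart.

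General macrophage genes were lower too. A reference of 10 such genes (Adgre1, Csf1r, C1qa, C1qb, C1qc, Fcgr1, Lyz2, Tyrobp, Aif1 and Laptm5) had a summed level of 404 to 647 RPKM with vehicle and 75.4 to 189 RPKM with AZD7507. Its mean log2 level was 4.46 ± 0.36 (SD, n = 3) with vehicle and 2.40 ± 0.47 (SD, n = 3) with AZD7507, 5 of its 10 genes fell, and 10 of 10 did not overlap between the groups. Pancreatic acinar genes stood apart in 2 libraries, with summed levels of 4904 RPKM in Vehicle 2 and 5409 RPKM in AZD7507 2 against 2.35 to 10.6 RPKM in the other 4. Vehicle 2 was the highest vehicle library for 9 of the 10 receptor genes, and it also held 202 RPKM of osteoclast genes against 17.6 to 22.2 RPKM elsewhere. Whether the tissue content of these libraries has a part in the receptor values was not tested. Differences between the groups for single receptor genes that move by over 1.5 times without both libraries are given with that value beside them.

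**Figure D1:**
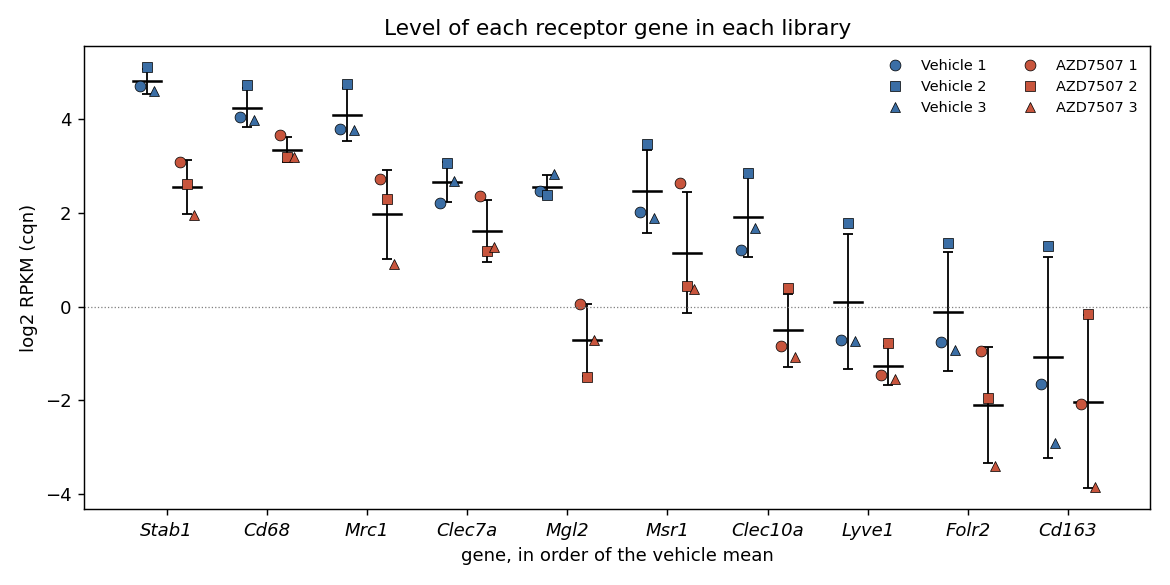
Level of the 10 receptor genes in each library as log2 RPKM (vertical axis), with genes in order of their vehicle mean; blue points are Vehicle and red points AZD7507 libraries, the symbol gives the replicate, and black lines give mean and SD (n = 3). Stab1, Mrc1, Mgl2 and Clec10a are clearly apart between the groups, while Msr1, Clec7a and Cd163 overlap.

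The galactose-binding lectins Mgl2 and Clec10a are neighbouring genes on the plus strand of chromosome 11 (GRCm38), Mgl2 at 70130329 to 70137550 and Clec10a at 70156197 to 70170834. Both encode receptors for terminal galactose and N-acetylgalactosamine on macrophages and dendritic cells. Their coding sequences were 1143 and 924 bases long in the longest complete GENCODE transcripts, and 90.4% of 910 aligned bases were identical. The longest identical stretch covered 183 bases, and it is shown here within 240 aligned coding bases because a read that lies inside it cannot be assigned to 1 of the genes. Capitals mark the 4 bases that differ, and the window runs from coding base 522 to 761 in Mgl2 and from 474 to 713 in Clec10a.
Mgl2: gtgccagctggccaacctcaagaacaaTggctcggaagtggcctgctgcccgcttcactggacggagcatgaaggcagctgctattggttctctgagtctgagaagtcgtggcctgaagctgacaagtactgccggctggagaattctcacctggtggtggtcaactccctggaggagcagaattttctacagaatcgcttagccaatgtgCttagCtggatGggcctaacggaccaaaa
Clec10a: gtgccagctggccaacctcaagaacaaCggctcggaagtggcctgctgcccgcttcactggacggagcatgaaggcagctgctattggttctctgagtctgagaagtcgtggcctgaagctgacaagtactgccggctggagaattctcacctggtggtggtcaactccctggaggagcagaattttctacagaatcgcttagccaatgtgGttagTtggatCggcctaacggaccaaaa
Of all stretches of 50 bases in the Mgl2 transcript, 15.3% were also in the Clec10a transcript, and of those in the Clec10a transcript 10.6% were in that of Mgl2. How the authors' counting treated such reads is not given in the sources used here, so the split between both genes is uncertain.

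Mgl2 had the largest difference of the 10. It was at 2.46, 2.39 and 2.84 in Vehicle 1 to 3 and at 0.06, -1.49 and -0.70 in AZD7507 1 to 3. The groups were far apart even at their nearest libraries, and AZD7507 2 was the lowest. The change was -3.28 (SE 0.38, 95% interval -4.16 to -2.39, limma adjusted p 0.028), which is 9.70-fold lower. In the order of all genes Mgl2 went from a level above 55.5% of genes to one above 8.69%. With a pseudocount of 1 RPKM, which shrinks changes of low genes, the change was -2.07. The call was lost when any library other than AZD7507 1 was left out (limma adjusted p 0.065 to 0.13), without Vehicle 2 and AZD7507 2 together (limma adjusted p 0.053), and with a constant variance prior (limma adjusted p 0.052).

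Clec10a was at 1.20, 2.86 and 1.67 in the vehicle libraries and at -0.84, 0.39 and -1.06 in the AZD7507 libraries. Both acinar-rich libraries, Vehicle 2 and AZD7507 2, were the highest of their group. The difference was -2.42 (SE 0.52, 95% interval -3.63 to -1.20), and it did not pass (limma adjusted p 0.17). It passed when libraries were weighted by their quality (limma array weights, adjusted p 0.028). With both acinar-rich libraries left out it was -2.39 (limma adjusted p 0.057), and with a pseudocount of 1 it was -1.47. The level of Mgl2 relative to Clec10a changed from library to library within the groups. Mgl2 minus Clec10a was 1.26, -0.47 and 1.17 with vehicle and 0.90, -1.89 and 0.36 with AZD7507, so that Clec10a exceeded Mgl2 in the acinar-rich library of each group and Mgl2 exceeded Clec10a in the other 4. The mean was 0.65 ± 0.97 and -0.21 ± 1.48 (SD, n = 3 each), and the difference of -0.86, which was -0.02 without AZD7507 2, did not pass (exact permutation test, 2-sided, p = 0.5), where 3 against 3 cannot go below 0.1.

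Mrc1 encodes the mannose receptor CD206, which clears mannosylated glycoproteins and collagen fragments, and lies on chromosome 2 at 14229392 to 14332057 on the plus strand. It was at 3.78, 4.76 and 3.76 with vehicle and at 2.72, 2.29 and 0.91 with AZD7507. All 3 AZD7507 libraries were lower, and AZD7507 3 stood well below the other two. The difference was -2.13 (SE 0.48) and did not pass (limma adjusted p 0.18). The microRNA gene Mir511 lies in an intron of Mrc1 and is not analysed here.

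Clec7a encodes dectin-1, the receptor for fungal beta-glucan that signals through the kinase SYK. It was at 2.21, 3.07 and 2.69 with vehicle and at 2.37, 1.20 and 1.27 with AZD7507. The groups overlapped because AZD7507 1 lay above Vehicle 1. The difference of -1.05 (95% interval -1.87 to -0.22) did not pass (limma adjusted p 0.44), and it was -1.43 without AZD7507 1 and -0.63 with both acinar-rich libraries left out. The annotation types Clec7a (chromosome 6, 129461591 to 129472779, minus strand) as a polymorphic pseudogene, a class for genes that are intact in some strains and not in others.

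Genes listed for dectin-1 signalling, some of which serve other leukocyte receptors, had lower means with AZD7507 in 9 of 9 cases. Of these, 0 passed over all genes and 7 were lower without overlap, against 8.02% of all genes, and the median difference was -1.31. The exchange factor gene Vav1 was at 2.01 ± 0.19 with vehicle and 0.46 ± 0.38 with AZD7507 (SD, n = 3 each), a difference of -1.56 (limma adjusted p 0.053). Fcer1g, the adaptor chain of activating receptors, differed by -1.44, and Syk by -0.99. Bcl10 and Malt1, adaptors made by many cell types, differed by -0.08 and -0.01.

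Stab1 encodes stabilin-1, a large receptor that takes up acetylated lipoprotein and the matrix protein SPARC. It lies on chromosome 14 at 31139013 to 31168641 on the minus strand. It was at 4.72, 5.12 and 4.60 with vehicle and at 3.09, 2.63 and 1.96 with AZD7507. The vehicle libraries lay close together and well above all AZD7507 libraries. Stab1 fell by 2.25 (SE 0.28, 95% interval -2.92 to -1.59, limma adjusted p 0.035), or 4.77-fold. Left out in turn, each library other than AZD7507 1 ended this call (limma adjusted p 0.062 to 0.16), and so did leaving out both acinar-rich libraries (limma adjusted p 0.10) and a constant variance prior (limma adjusted p 0.065), although the difference stayed between -2.52 and -1.95. Exons of Nt5dc2 cover 112 of 10288 Stab1 exon bases on the other strand. Nt5dc2 itself differed by -0.01.

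Cd68 encodes a lysosomal and endosomal glycoprotein of the LAMP family and lies on chromosome 11 at 69664213 to 69666153 on the minus strand. It was at 4.05, 4.73 and 3.98 with vehicle and at 3.66, 3.20 and 3.20 with AZD7507. The groups did not overlap, but the gap between Vehicle 3 and AZD7507 1 was small. The difference of -0.90 (SE 0.23, 95% interval -1.43 to -0.37) was the smallest of the 10 and did not pass (limma adjusted p 0.24). It was -0.59 without both acinar-rich libraries.

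Msr1 encodes scavenger receptor A, a trimeric receptor for modified lipoproteins. It was at 2.01, 3.48 and 1.89 with vehicle and at 2.64, 0.45 and 0.38 with AZD7507. AZD7507 1 lay above 2 of the 3 vehicle libraries, and the other AZD7507 libraries lay well below all of them. The difference was -1.31 (95% interval -2.89 to 0.28, limma adjusted p 0.65). It was -2.05 without AZD7507 1, -0.80 without Vehicle 2 and -0.44 with both acinar-rich libraries left out.

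Cd163 encodes the receptor for haptoglobin-haemoglobin complexes, and its level was the lowest of the 10 with vehicle. It was at -1.64, 1.29 and -2.90 with vehicle and at -2.08, -0.16 and -3.85 with AZD7507. The acinar-rich library was the highest in each group, and the groups overlapped. The difference was -0.95 with a 95% interval from -3.85 to 1.96 (limma adjusted p 0.88), and it was -0.04 without AZD7507 3, -0.35 with a pseudocount of 1 and 0.24 without Vehicle 2. With SDs of 2.15 and 1.84, a moderate change of Cd163 could not be seen here. Genes of haemoglobin and haem handling, from plasma binding proteins to iron export, showed 0 calls among 10 listed genes with a median difference of -0.10. Among them Hmox1, the haem oxygenase gene, differed by -0.41, and Blvrb, a biliverdin reductase gene, by -0.24.

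Folr2 encodes folate receptor beta. It was at -0.75, 1.36 and -0.92 with vehicle and at -0.95, -1.95 and -3.40 with AZD7507. Vehicle 2 stood far above the rest, and the nearest libraries of the groups, Vehicle 3 and AZD7507 1, were almost equal. The difference was -2.00 (95% interval -3.86 to -0.14, limma adjusted p 0.53), -1.27 without Vehicle 2 and -0.69 with a pseudocount of 1. The other folate genes had nearly the same mean in both groups. Folr1, the folate receptor of epithelial cells, was at 1.83 ± 0.17 and 1.93 ± 0.40 (SD, n = 3 each), and the transporter genes Slc46a1 and Slc19a1 differed by 0.31 and -0.16, with 0 of 3 called.

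Lyve1 encodes a hyaluronan receptor of lymphatic endothelium and of perivascular macrophages. It was at -0.71, 1.78 and -0.73 with vehicle and at -1.45, -0.78 and -1.54 with AZD7507. Only Vehicle 2 was clearly high, and the groups were parted by less than 0.1. The difference was -1.37 (95% interval -2.96 to 0.22, limma adjusted p 0.63) and was -0.53 without Vehicle 2, -0.77 with both acinar-rich libraries left out and -0.66 with a pseudocount of 1. Of 8 lymphatic endothelial markers 4 were measured. Their summed level was 88.5 to 102 RPKM with vehicle and 91.4 to 105 RPKM with AZD7507, and Flt4, the VEGFR3 gene, differed by 0.18. Of these 4 markers 0 were called, and the median difference was 0.10. In every AZD7507 library 2 of the 4 were higher than in every vehicle library, where 7.34% of all genes were. The markers Prox1, Ccl21a, Reln and Mmrn1 were not analysed here. Blood endothelial markers (10 of 10 measured) summed to 43.4 to 54.8 RPKM with vehicle and 58.8 to 61.8 RPKM with AZD7507. For single genes, 0 of these 10 were called and 0 were apart between the groups. The median difference was 0.07, and 3 of the 10 had a lower mean. Kdr and Esam, which had the highest levels and so weigh most in the sum, differed by 0.30 and 0.41. Of 13 measured genes of hyaluronan synthesis, binding and breakdown 0 were called, and the median difference was 0.09. The hyaluronan receptor gene Cd44 differed by 0.07 and the hyaluronidase gene Cemip by -0.40.

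**Figure D2:**
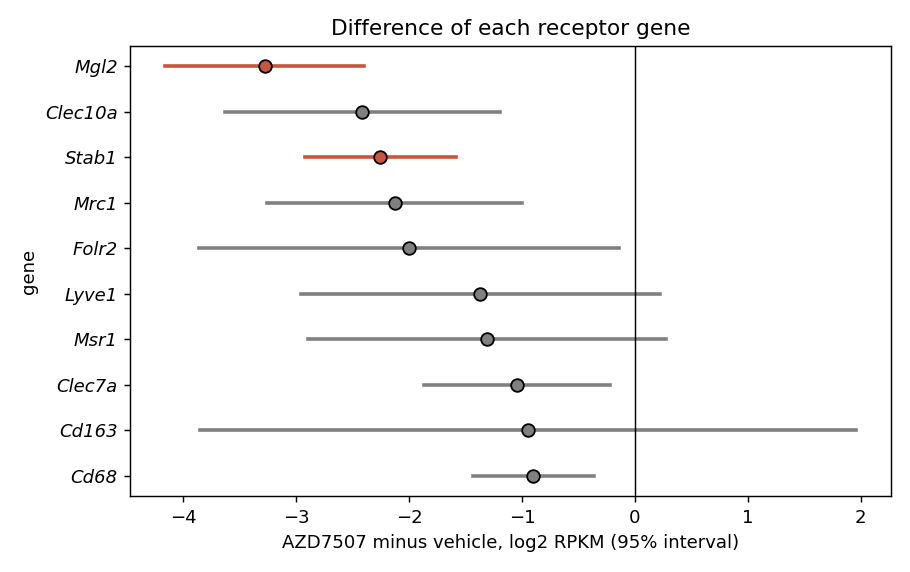
Difference in log2 RPKM between AZD7507 and vehicle (horizontal axis) for each of the 10 genes, with the 95% interval from limma as a bar; red marks genes with an adjusted p under 0.05 over all genes. Mgl2 and Stab1 are red, and the intervals of Msr1, Lyve1 and Cd163 include 0.

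The order of the levels changed at its top. With vehicle Stab1 led at 4.81 ± 0.27, followed by Cd68 at 4.25 ± 0.41 and Mrc1 at 4.10 ± 0.57 (SD, n = 3 each), and these neighbours overlapped between libraries. Mrc1 and the next gene, Clec7a, did not overlap. Clec7a, Mgl2, Msr1, Clec10a, Lyve1, Folr2 and Cd163 followed in this order, each overlapping its neighbour. With AZD7507 the leader was Cd68 at 3.35 ± 0.26, which did not overlap Stab1 at 2.56 ± 0.57 (SD, n = 3 each), and from Stab1 downwards every neighbouring pair overlapped.

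Of the 45 pairs of receptor genes, Stab1 and Cd68 were the pair whose order was the same in all libraries of a group and opposite in the other group. Stab1 exceeded Cd68 by 0.67, 0.39 and 0.62 in the vehicle libraries. It was below Cd68 by 0.57, 0.57 and 1.24 in the AZD7507 libraries. This pair was picked after its values were seen and has no test.

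Set against the general macrophage reference of the same library, the receptor genes split. The reference was also drawn up with earlier results of these data known, and 5 of its 10 genes fell. Its mean log2 level differed by -2.06, so any gene with a smaller fall lies higher relative to it by construction. Cd68 minus the reference mean was -0.27, -0.14 and -0.22 with vehicle and 0.92, 0.61 and 1.34 with AZD7507, so its level relative to the reference was higher by 1.16. For Clec7a the relative level was -2.11, -1.80 and -1.51 with vehicle and -0.37, -1.39 and -0.60 with AZD7507, a difference of 1.02. Mgl2 went the other way, from -1.86, -2.47 and -1.36 to -2.68, -4.08 and -2.57, a difference of -1.21. The groups did not overlap for these 3 genes, each with the smallest p that 3 against 3 allow (exact permutation test, 2-sided, p = 0.1, adjusted over the 10 genes 0.33). This picture depends on the scale. With a pseudocount of 1 the Mgl2 difference was -0.27 (it was -0.73 without AZD7507 2), Clec10a turned to 0.33, and Folr2, Lyve1 and Cd163 were higher relative to the reference by 1.12, 1.14 and 1.45, each with an exact permutation p = 0.1 like Cd68 and Clec7a.

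Stab1 and Mrc1 kept close to the reference. Stab1 minus the reference was 0.35 ± 0.09 with vehicle and 0.16 ± 0.17 with AZD7507, and Mrc1 minus the reference was -0.36 ± 0.23 and -0.42 ± 0.48 (SD, n = 3 each). The differences were -0.19 and -0.07, and the exact permutation test gave p = 0.2 and p = 0.9. For the remaining genes, groups overlapped. The relative differences were -0.35 for Clec10a, 0.07 for Folr2, 0.70 for Lyve1, 0.76 for Msr1 and 1.12 for Cd163, and the exact permutation p ran from 0.3 to 1. Leaving out 1 library moved them to between 0.19 (without AZD7507 1) and 1.21 (without AZD7507 2) for Msr1, between 0.28 (without AZD7507 2) and 2.10 (without Vehicle 2) for Cd163, between 0.35 (without Vehicle 1) and 1.33 (without Vehicle 2) for Lyve1, and between -0.70 (without AZD7507 2) and -0.01 (without AZD7507 1) for Clec10a. Folr2 ran from -0.34 without AZD7507 1 to 0.59 without Vehicle 2. With both acinar-rich libraries left out Msr1 was at 1.51, Lyve1 at 1.18 and Folr2 at 0.62.

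**Figure D3:**
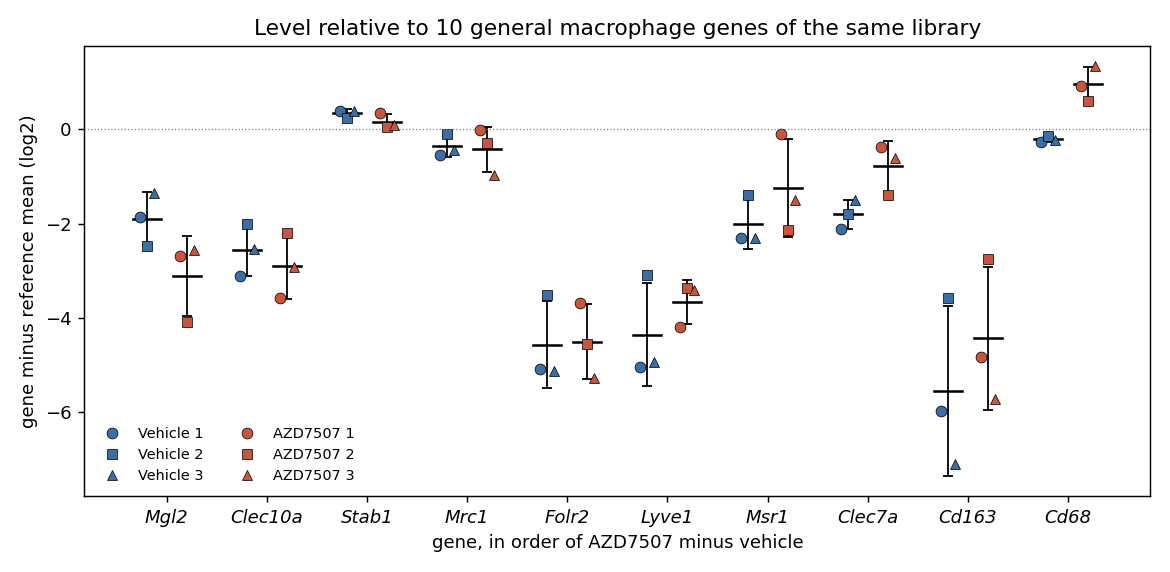
Each gene's log2 level minus the mean log2 level of the 10 general macrophage genes in the same library (vertical axis), with genes in order of AZD7507 minus vehicle; blue points are Vehicle, red points AZD7507, and black lines give mean and SD (n = 3). Cd68 and Clec7a lie higher and Mgl2 lower in all AZD7507 libraries, while Stab1 and Mrc1 stay near the reference.

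Within the AZD7507 group, AZD7507 1 was the highest library for 7 of the 10 genes and AZD7507 3 the lowest for 8. For Msr1 and Clec7a, AZD7507 1 reached into the vehicle range. Other myeloid genes showed such a high value in AZD7507 1. Clec5a was at 1.31 there against -0.67 and -0.63 in AZD7507 2 and 3, Clec4e at 0.69 against -0.70 and -0.49, and the arginase gene Arg1 at 5.69 against 4.23 and 3.51. These genes were named after their values were seen.

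Other C-type lectins of leukocytes differed among themselves. Of 17 measured from a list of 30, 1 fell and 0 rose (0.337% of all genes fell), 5 were lower without overlap (8.02% of all genes), and the median difference was -0.67. Cd72, an inhibitory lectin best known from B cells, fell by 2.03 (SE 0.22, limma adjusted p 0.021), from 1.80, 1.70 and 1.18 to -0.50, -0.41 and -0.50. Klrb1b, a receptor of the NK cell lectin family, was at 0.23, -0.23 and -0.95 with vehicle and at -4.02, -2.92 and -4.96 with AZD7507. Its difference of -3.65 rests on values near the bottom of the table and did not pass (limma adjusted p 0.068). Clec4a3, of the dendritic cell immunoreceptor family, differed by -2.20 (limma adjusted p 0.071), and its relatives Clec4a1 and Clec4a2 by -1.95 and -1.94. The genes of this family resemble each other, so their reads may be split. The mannose receptor relative Mrc2, which fibroblasts make, was at 4.29 ± 0.82 and 4.11 ± 0.82 (SD, n = 3 each), a difference of -0.17.

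Among siglecs and galectins, 2 of 13 measured genes fell and 0 rose, where 0.337% of all genes fell, with a median difference of -0.18. Cd33 fell by 2.55 (limma adjusted p 0.033) and Siglece by 2.21 (limma adjusted p 0.049), both sialic acid receptors of myeloid cells. Siglec1, or sialoadhesin, a marker of tissue macrophages, was at 2.41, 3.46 and 1.91 with vehicle and at 0.18, -0.06 and -0.86 with AZD7507, and differed by -2.84 (limma adjusted p 0.057). The galectin genes Lgals1 and Lgals3, made by many cells, differed by 0.30 and -0.23.

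Other scavenger receptors showed 0 calls among 17 measured genes, 2 that were lower without overlap, a share near the 8.02% of all genes, and a median difference of -0.07. Cd14, the co-receptor for lipopolysaccharide, was at 4.25 ± 0.62 and 2.96 ± 0.64 (SD, n = 3 each) and differed by -1.29 (limma adjusted p 0.35). Lrp1, a broad endocytic receptor also made by fibroblasts, differed by -0.50, and Cxcl16, a membrane chemokine that binds oxidised lipoprotein, by -0.42. Scarb2, a lysosomal membrane protein of most cells, differed by 0.00.

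**Figure D4:**
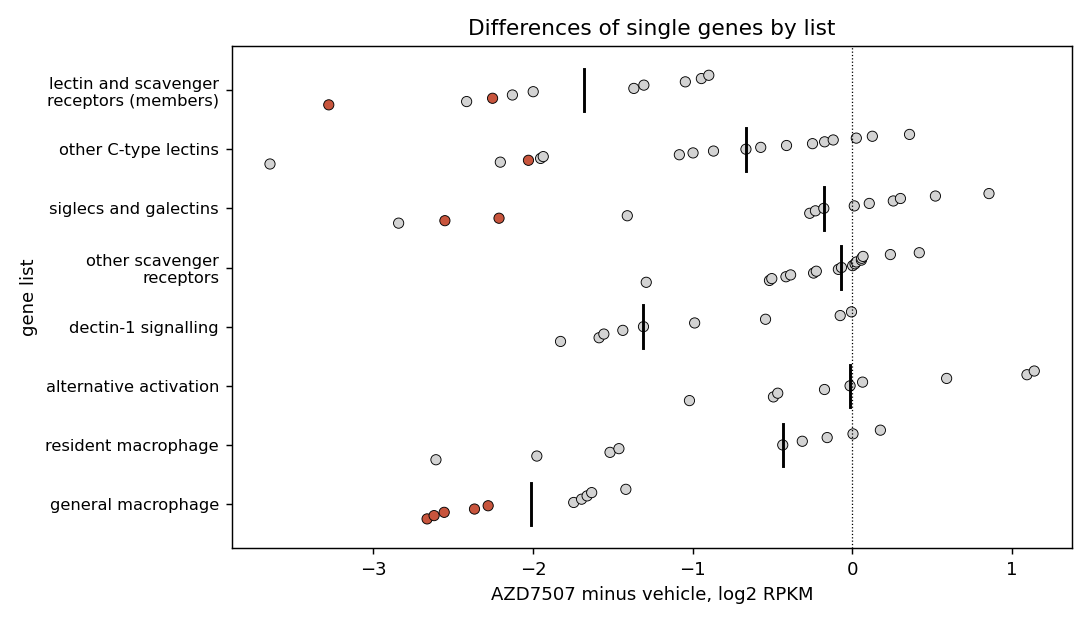
Differences in log2 RPKM between AZD7507 and vehicle (horizontal axis) for single genes of 8 lists; points are genes, red marks an adjusted p under 0.05 over all genes, and black bars are list medians. The receptor genes have a median of -1.68 and the general macrophage genes one of -2.01, while other scavenger receptors and alternative activation genes centre near 0.

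Genes that share the marker use of these receptors did not all share their difference. Of 9 measured alternative activation genes 0 were called, 2 were higher in every AZD7507 library (7.34% of all genes were), and the median difference was -0.01. Il10 was at 0.16 ± 0.30 and 1.25 ± 0.21 (SD, n = 3 each), a difference of 1.09 (limma adjusted p 0.14). Chil3, a chitinase-like lectin of activated macrophages, was at -0.68, -0.66 and -0.60 with vehicle and at 1.71, 0.27 and -0.50 with AZD7507. Il4ra, the receptor chain for the cytokines that induce Mrc1, differed by -0.47. Resident macrophage genes had 0 calls among 9 measured and a median of -0.44. In that list the ficolin gene Fcna and the platelet factor gene Pf4 differed by -2.61 and -1.46 (limma adjusted p 0.39 and 0.41).

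Dendritic cell markers, of which 9 of 12 were measured, summed to 43.2 to 58.5 RPKM with vehicle and 39.6 to 54.4 RPKM with AZD7507, and 0 were called. Among them Itgax, which macrophages share, differed by -1.44, Sirpa by -0.51 and Dpp4 by 0.70. The defining markers Flt3 and Xcr1 were not analysed here. Monocyte markers (8 of 10 measured) had 0 calls, with -1.67 for the chemokine receptor gene Ccr2 and -1.55 for Itgam. Neutrophil markers (4 of 8 measured) had 0 calls and summed to at most 9.88 RPKM in any library. Their part in the receptor values was not tested.

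The genes whose profile over the 6 libraries lay nearest to the median profile of the 10 receptors were Igsf6, Pid1, Cass4, Ms4a6c and Ccr1. After each gene was centred on its own mean, their root mean square distance from that profile was 0.19 to 0.22 log2 units over 6 libraries, against 0.30 for Mrc1, the nearest of the 10, and 1.27 for Cd163, the farthest. Ccr1, a chemokine receptor gene of myeloid cells, was at 3.97, 4.86 and 3.77 with vehicle and at 3.19, 2.62 and 2.07 with AZD7507. Igsf6 was at 1.76, 2.70 and 1.61 and then at 1.01, 0.49 and -0.16. In these genes, as in most of the receptors, Vehicle 2 was the highest library and AZD7507 3 the lowest. Because the genes were picked from all genes for closeness to that profile, their short distances and these extremes follow from the choice.

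Promoter windows were examined because the receptor genes were lower together. RefSeq windows of GRCm38.p6 were found for 7 of the 10 genes, and the 250 bases before each start were searched on both strands. The sequence GAGGAA, the core of sites bound by the myeloid factor PU.1, occurred in windows of 5 of 7 genes (Mrc1, Mgl2, Stab1, Cd68 and Clec7a), where 23.3% of all 32851 windows held it. TGACTCA, the AP-1 site, occurred in windows of 2 genes, Cd68 and Folr2 (4.46% of all windows), the STAT6 motif in 1 gene, Clec7a (5.85%), and TTCNNNGAA, the common STAT motif (7.02%), and CACGTGAC (1.85%) in 0 genes. A gene was counted if any of its windows matched, and Clec7a and Folr2 had more than 1 window each. The shares are per window, so counts of genes and shares are not on the same basis. Longer or other sites can overlap these letters, and a match is a description only. The windows of the genes that fell and of Mrc1 are shown, with GAGGAA or its reverse complement in capitals. They are chr11:70130107-70130356 (plus) for Mgl2, chr14:31168642-31168891 (minus) for Stab1 and chr2:14229164-14229413 (plus) for Mrc1.
Mgl2: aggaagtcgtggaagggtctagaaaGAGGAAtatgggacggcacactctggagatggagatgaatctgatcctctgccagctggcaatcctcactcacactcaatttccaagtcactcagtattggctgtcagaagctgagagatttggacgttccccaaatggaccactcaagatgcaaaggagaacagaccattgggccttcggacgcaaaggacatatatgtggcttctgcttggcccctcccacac
Stab1: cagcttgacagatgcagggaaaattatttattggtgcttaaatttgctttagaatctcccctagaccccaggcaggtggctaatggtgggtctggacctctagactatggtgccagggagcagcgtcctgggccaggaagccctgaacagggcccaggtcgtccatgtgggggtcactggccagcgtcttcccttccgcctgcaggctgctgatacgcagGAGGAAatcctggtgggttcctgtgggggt
Mrc1: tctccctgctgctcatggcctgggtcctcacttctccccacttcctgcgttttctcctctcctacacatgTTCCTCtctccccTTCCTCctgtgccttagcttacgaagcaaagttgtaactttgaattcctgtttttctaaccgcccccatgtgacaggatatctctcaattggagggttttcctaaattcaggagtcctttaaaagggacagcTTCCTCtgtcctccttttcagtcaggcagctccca
The match nearest to the start was 30 bases before it in Stab1, 35 in Mrc1 and 225 in Mgl2, and Mrc1 held 3 matches.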

How the data were processed

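RNA of 6 mouse tumours was sequenced after ribosomal depletion (labels' protocols). The authors deposited log2 RPKM values normalized with cqn, as the table's name says; BWA 0.7.15-r1140, HTSeq, mm10 and GRCm38 are named in the submitters' processing notes. The method, cqn, corrects for GC content and length; the upper quartile was 3.52 in each library, so a global change in RNA cannot be seen. The annotation release, strand setting and low-value filter are not given in the sources used here, and depth is unknown. Treatment labels gave the groups, and replicate numbers follow record order.

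Symbols were matched for 16306 of 16344 identifiers. Coordinates and transcripts are from GENCODE M21 (GRCm38) and promoters from RefSeq. The log2 values were fitted as deposited with limma 3.58.1 in R 4.3.3 (trended, robust prior, 2-sided, Benjamini-Hochberg threshold 0.05 over all genes); the fit was tested on simulated data. Ratios were tested by exact permutation. The members and all 17 other lists were chosen with earlier results of these data known. Named are all members, up to 3 genes per list by unadjusted p (1 such gene is not reported here), and the 5 genes nearest in profile; other named genes were picked knowing their values. The alternatives: constant prior, array weights, median centring, quantile normalization, a minimum mean of 0, pseudocounts of 1 and 0.1, and leaving out each library. Leaving out both acinar-rich libraries was added after seeing the data.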

Additional observations from a re-analysis of the deposited data

How the results depend on the processing

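Mgl2 and Stab1 were both called under 6 of the 7 alternatives that kept all libraries. Under the constant variance prior 0 of the 10 receptor genes were called (limma adjusted p 0.052 for Mgl2 and 0.065 for Stab1), and 1 gene in all rose. With array weights Clec10a was called too (limma adjusted p 0.028), among 157 genes in all, 143 lower and 14 higher. Leaving out 1 library gave 0 to 2 called receptor genes, and 0 to 14 called genes in all, 0 to 14 lower and 0 higher, against 58, 55 and 3. At an unadjusted limma p under 0.05 these fits held 863 to 2441 of 16344 genes. With no difference at all, a fraction of about 0.05 of the genes would lie under that threshold. Without both acinar-rich libraries 0 receptor genes were called (14 genes in all, 13 lower and 1 higher, and 2674 at an unadjusted p under 0.05). The number of receptor genes with every AZD7507 library below every vehicle library was 7 to 9 without 1 library, where 10.4% to 17.8% of all genes were, and 7 without both acinar-rich libraries, where 23.6% of all genes were lower in this way. At a minimum mean log2 RPKM of 0, 7 of the 10 genes remained and 5 of them were lower without overlap, where 7.81% of the 14014 genes kept were.

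The sign of a difference held in all alternatives run for 9 of the 10 genes, and Cd163 ran from -1.88 to 0.24 without 1 library (0.24 without Vehicle 2). Relative to the general macrophage reference, Clec10a turned to 0.33 with a pseudocount of 1, Mrc1 to 0.06 without Vehicle 2 and 0.20 without AZD7507 3 (range -0.27 to 0.20 without 1 library), and Folr2 (range -0.34 to 0.59 without 1 library, 1.12 with a pseudocount of 1) to -0.19 without Vehicle 1, -0.21 without Vehicle 3 and -0.34 without AZD7507 1. Mgl2 minus Clec10a differed by -1.42 to -0.02 over its alternatives. No paired analysis was possible because the labels carry no replicate numbers that tie samples across groups. Cd163, Folr2 and Lyve1 are limited by their levels near or below 1 RPKM.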
